A study of Homo sapiens with 6 samples.

Results

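The transcripts of the axon guidance ligands and receptors were measured in aggregates of NCRM-1, a human induced pluripotent stem cell line. The 69 genes were taken by a rule on their symbols, which uses no value and was set with earlier results of these data known, from the 19977 genes of the deposited count tables. They are the EPHA and EPHB receptors and their ephrin ligands, the semaphorins of classes 3 to 7 with the plexins and neuropilins, the slits and robos, and the netrins with DCC and the UNC5 receptors, 35 ligands and 34 receptors in 12 families. The symbols came from GENCODE 44, and every gene of these families in that annotation had a line in the counts.

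Axon guidance ligands steer growing axons, and the same proteins position cells and shape epithelia and vessels in many tissues. Ephrins stay on the cell surface, by a lipid anchor (ephrin-A) or a membrane span (ephrin-B), and bind Eph receptor tyrosine kinases on the neighbouring cell, with signalling into both cells. Semaphorins act through plexins, which regulate small GTPases and integrins, and the secreted class 3 members mostly need a neuropilin to bind. Slits are secreted and bind robo receptors, and netrins are laminin-like proteins that attract through DCC and repel through UNC5 receptors. Several slits, netrins and semaphorins bind heparin or heparan sulfate, and no binding was measured here.

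NCRM-1 was made from CD34+ cells of cord blood by reprogramming with episomal plasmids, so all libraries come from 1 line. Bulk polyadenylated RNA was sequenced after 4 days of aggregate culture in vertical wheel bioreactors with 50% of the medium replaced on day 2, from 2 media. The PEG and HS group was 3 samples in E8 medium that held polyethylene glycol at 10 mg/ml and the sodium salt of heparin at 0.1 µg/ml, and the E8 control group was 3 samples in E8 medium alone. The comparison asks what the additives change in cells kept in a pluripotency medium. The treatment text of the labels describes the additives for all 6 libraries, against the treatment given for each library, which was followed. The labels read as 1 bioreactor per medium, so an effect of the vessel cannot be told apart from one of the medium. The p-values measure only the spread between these samples, which may be technical.

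The libraries held 26991279 to 36185138 counts, and normalization factors lay between 0.994 and 1.01. The pluripotent identity of the cells was visible in both media. The 13 pluripotency markers summed to 11562 to 11797 CPM (counts per 1000000 counts of the library) in PEG and HS and 11600.0 to 11833 CPM in E8 control. With the additives 6 of the 13 markers rose (46.2%, beside 12.2% of all tested genes) and 4 fell (30.8%, beside 13.1%). Of the core pluripotency factors, POU5F1 rose from 1635 to 1922 CPM and NANOG from 126 to 185 CPM (log2 fold changes 0.23 and 0.55), while SOX2 fell from 412 to 273 CPM (log2 fold change -0.59). The other falls were in LIN28A, PODXL and SALL4. Levels below are CPM on the normalized library size. Differences are log2 fold changes (log2FC) between PEG and HS and E8 control, positive where PEG and HS was higher. They were tested with the quasi-likelihood method of edgeR, p-values were adjusted by Benjamini-Hochberg over all 16505 tested genes, and a gene was called at an adjusted p under 0.05. A fold given beside an adjusted p comes from the same fit.

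Of the 69 genes, 68 had enough counts to be tested, and 61 averaged at least 1 CPM in both media. The exception was ROBO4, the endothelial robo, with 6 counts in all 6 libraries together. Among the tested genes 37 were called, 54.4%, beside 25.3% of all tested genes. In PEG and HS 13 rose, 19.1% beside 12.2% of all genes, and 24 fell, 35.3% beside 13.1%. The median log2 fold change was -0.11, and 0.0031 over all tested genes, and the median absolute log2 fold change was 0.24 and 0.12. Libraries of the 2 media did not overlap in 45 of the 68 genes, 66.2% beside 39.3% of all tested genes, and in each of the 37 called genes.

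Large changes were mostly decreases. With an absolute log2 fold change over 0.5 required as well, 13 genes were called lower, 19.1% beside 4.19% of all tested genes, and 1 was called higher, 1.47% beside 1.28%. The 13 were SEMA6D, NRP1, EPHA4, SEMA4A, NRP2, NTN1, EFNA5, SLIT1, EFNA1, SEMA3B, NTN4, UNC5A and SEMA5B, and the 1 was PLXNB3. Of the called genes 25 changed by less than 1.5-fold. Summed over all 69 genes, the members took 3254 to 3351 CPM in PEG and HS against 3170.1 to 3205 CPM in E8 control, and the most counted of them, SEMA6A and EPHA1, rose. Ligands and receptors both moved in both directions. Of 35 ligands 6 were higher (17.1%) and 15 lower (42.9%), and of 33 tested receptors 7 were higher (21.2%) and 9 lower (27.3%). The shares over all tested genes were 12.2% higher and 13.1% lower. The same shares stand beside the counts by family below, which rest on 2 to 13 genes each.

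**Figure D1:**
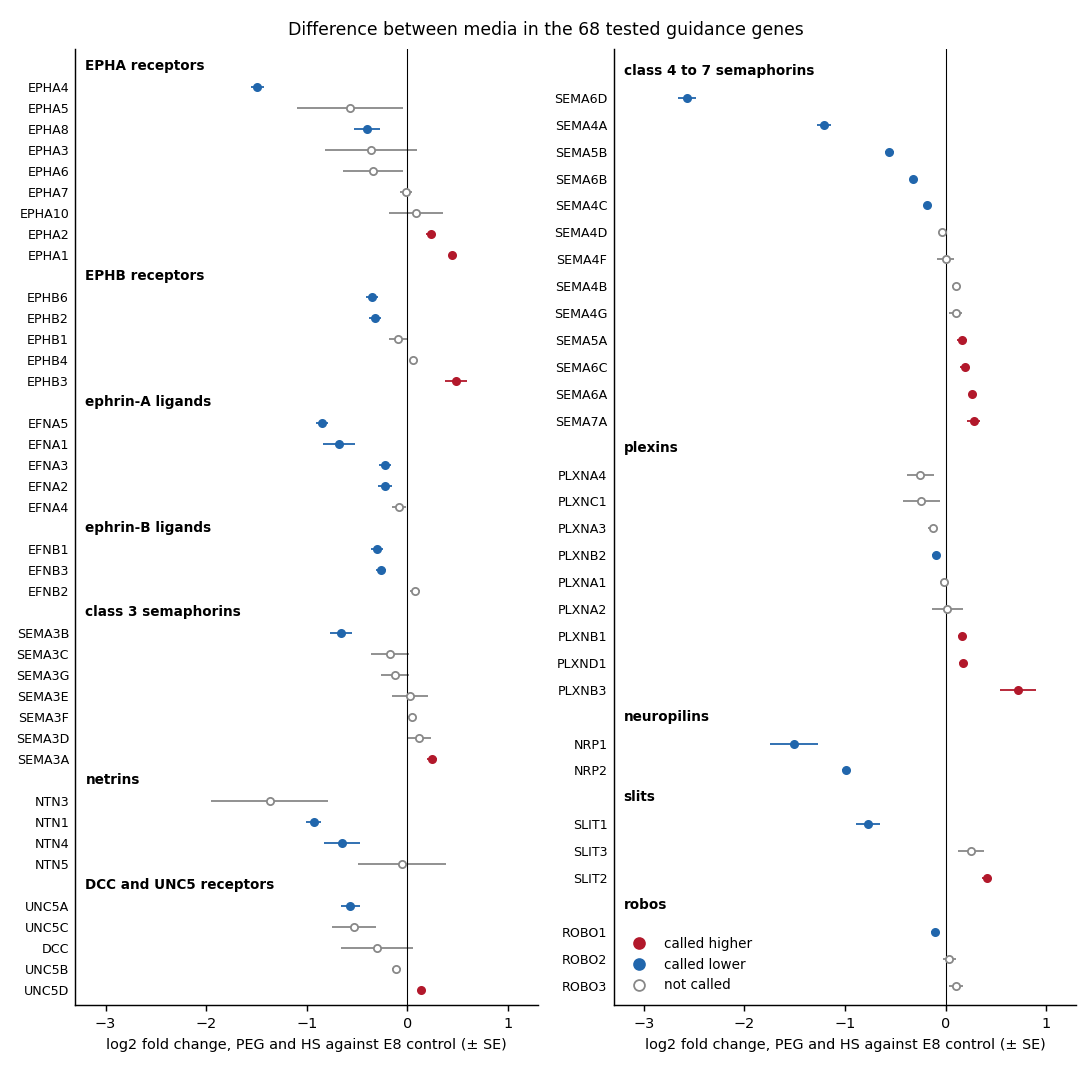
Log2 fold change of PEG and HS against E8 control with its standard error for the 68 tested genes, grouped by family on the vertical axis, with called higher genes in red, called lower genes in blue and the others in open grey. The 24 blue points reach -2.57 (SEMA6D), and the 13 red points reach 0.72 (PLXNB3).

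Markers of neuroectoderm mostly fell, while the members went both ways. Of 11 neuroectoderm markers 9 were lower and 0 higher, with 764 to 791 CPM summed in E8 control and 565 to 604 CPM in PEG and HS. Most of this sum was NES, which fell from 643 to 543 CPM, a log2 fold change of -0.24. SOX1, LHX5 and SIX3 fell more at lower levels (log2 fold changes -1.70, -2.37 and -1.35). OTX2, a homeobox factor of the early anterior neural plate, fell from 79.4 to 18.6 CPM, a log2 fold change of -2.10, and the neuroectoderm factors RAX (1.42 CPM in E8 control), LHX2, FEZF2 and HES5 (under 1 CPM) were low in both media. The sums for other cell types also rest mostly on a few abundant genes. Neurons gave 348 to 364 CPM in PEG and HS against 367 to 375 CPM in E8 control, neural crest 91.2 to 94.6 and 92.5 to 98 CPM, and endothelium 99.4 to 106 and 89.7 to 96.1 CPM, with the defining endothelial genes PECAM1 and CDH5 under 1 CPM. Mesoderm markers summed to 5.9 to 6.05 and 6.4 to 7.84 CPM, with MSGN1 at 0 in every library, and endoderm markers to 6.44 to 6.97 and 8.9 to 9.9 CPM, with SOX17 near 0. Single markers of these types moved more than the sums. TFAP2A, a neural crest and surface ectoderm factor, fell 9.86-fold from 6 to 0.603 CPM (adjusted p = 9.84e-09), more than any called member. The neuronal genes STMN2 and MAP2 fell (log2 fold changes -0.93 and -0.60), and so did the endothelial gene VWF (log2 fold change -1.47). Other markers rose, among them ERG, TIE1 and KDR of the endothelial list (log2 fold changes 0.69, 0.57 and 0.19). NGFR and ETS1 of the neural crest list rose as well (log2 fold changes 0.20 and 0.16). Beside 12.2% higher and 13.1% lower over all tested genes, the calls were 0 higher and 2 lower of 10 neuronal, 2 and 2 of 10 neural crest, 3 and 2 of 10 endothelial, 0 and 2 of 7 tested mesoderm and 0 and 1 of 6 tested endoderm markers. In either direction 20% of the neuronal, 28.6% of the mesoderm and 16.7% of the endoderm markers were called, near or below the 25.3% of all tested genes. For neural crest and endothelial markers the shares were higher, at 40% and 50%. The part of any of these in the guidance genes was not tested, and in bulk samples fewer cells of a type and less RNA per cell cannot be told apart.

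The start regions of 4 genes, chosen after their values were seen, are shown, 3 that fell (SEMA6D, NRP2 and EPHA4) and the most changed abundant gene that rose (EPHA1). Each is the 250 bases before the RefSeq start of the gene on GRCh38.p14, 5′ to 3′ on the gene's strand, in lower case with capitals marking matches to the 3 searched motifs. The motifs were TAATCC, a core that OTX-type homeodomains bind, AGGTCA, a nuclear receptor half-site, and GGGCGG, the GC box that SP factors bind, each searched on both strands, and adjacent GC boxes may overlap in a run of capitals. They cover chr15:47183839-47184088 on the plus strand for SEMA6D, chr2:205682251-205682500 on the plus strand for NRP2, chr2:221574203-221574452 on the minus strand for EPHA4 and chr7:143408857-143409106 on the minus strand for EPHA1.

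SEMA6D: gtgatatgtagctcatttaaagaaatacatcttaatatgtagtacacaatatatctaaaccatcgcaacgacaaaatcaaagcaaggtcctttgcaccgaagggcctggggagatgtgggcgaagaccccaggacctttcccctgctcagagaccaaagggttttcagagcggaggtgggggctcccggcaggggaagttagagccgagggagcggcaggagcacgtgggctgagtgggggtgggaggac
NRP2: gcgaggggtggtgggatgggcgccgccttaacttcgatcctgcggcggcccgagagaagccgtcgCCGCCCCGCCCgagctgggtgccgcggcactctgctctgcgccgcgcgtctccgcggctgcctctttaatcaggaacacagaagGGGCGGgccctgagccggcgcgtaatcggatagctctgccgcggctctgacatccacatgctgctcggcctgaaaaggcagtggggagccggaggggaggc
EPHA4: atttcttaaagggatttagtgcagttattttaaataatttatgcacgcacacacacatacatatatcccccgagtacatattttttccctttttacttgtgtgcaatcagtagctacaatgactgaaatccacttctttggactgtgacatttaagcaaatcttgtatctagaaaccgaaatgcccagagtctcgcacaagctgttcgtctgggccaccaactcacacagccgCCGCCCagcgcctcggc
EPHA1: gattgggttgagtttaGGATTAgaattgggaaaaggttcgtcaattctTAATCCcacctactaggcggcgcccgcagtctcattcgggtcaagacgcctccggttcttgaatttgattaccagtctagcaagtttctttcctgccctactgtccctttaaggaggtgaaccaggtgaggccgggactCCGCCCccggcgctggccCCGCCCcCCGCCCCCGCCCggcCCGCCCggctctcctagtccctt

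The SEMA6D window held none of the 3 motifs and the EPHA4 window 1 GC box, while the NRP2 window held 3 GC boxes and the EPHA1 window 5 GC boxes and 2 TAATCC matches. GC content was 53.6% for SEMA6D, 70.0% for NRP2, 43.2% for EPHA4 and 59.2% for EPHA1. RefSeq start regions were matched for 59 of the 69 genes, with a median GC content of 65.6%, beside 58.0% over 27305 start regions. TAATCC was present in 0 of 20 start regions of genes called lower, 3 of 10 called higher and 1 of 28 not called, and in 5.67% of all start regions. AGGTCA was present in 2, 1 and 2 of these and in 12.1% of all, and GGGCGG in 14, 9 and 19 and in 42.3% of all. The counts do not show which start a gene used, and these matches describe letters only.

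Among the EPHA receptors 2 rose, 2 fell and 5 were not called. EPHA1 (ENSG00000146904, chr7:143390289-143408856, minus strand), a receptor of ephrin-A1 that epithelia express, gave 305, 313 and 306 CPM in PEG and HS against 233, 221 and 225 CPM in E8 control. Every PEG and HS library lay above every E8 control library. The rise was 1.36-fold, a log2 fold change of 0.44 with a standard error (SE) of 0.028 and an adjusted p of 1.21e-08. EPHA1 overlaps ZYX on the opposite strand, which averaged 305 ± 7.74 (SD, n = 3) and 276 ± 7.68 CPM with a log2 fold change of 0.15, and the use of strand in the authors' counting is not given in the sources used here. EPHA2, a receptor abundant in epithelial cells, rose less, with 29, 31.5 and 30.8 CPM against 26.2, 25.7 and 25.8 CPM (log2FC 0.23, SE 0.048, adjusted p = 0.00226).

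EPHA4 (ENSG00000116106, chr2:221418027-221574202, minus strand), which binds ephrins of both classes, had the largest change of any Eph receptor. It gave 8.33, 10.2 and 9.4 CPM in PEG and HS against 25.6, 26.5 and 26.2 CPM in E8 control, so that the highest PEG and HS library was far below the lowest control. The fall was 2.81-fold, with a log2 fold change of -1.49, an SE of 0.068 and an adjusted p of 3.02e-10. Per kilobase of exon, EPHA1 was the highest EPHA receptor in both media, at 48.2 CPM per kb in E8 control and 65.6 in PEG and HS, and EPHA4 went from 3.45 to 1.23. EPHA8, another ephrin-A receptor, was called lower at 3.68, 3.36 and 3.78 CPM against 5.26, 5.08 and 4.07 CPM, with the third control library closest to the PEG and HS values. Its log2 fold change of -0.40 (SE 0.13, adjusted p = 0.029) lost its call in 4 of the 6 fits without 1 library, those without PEG and HS replicate 1 or 2 or control replicate 1 or 2, where the adjusted p ran from 0.0693 to 0.0995, and with DESeq2 (adjusted p = 0.068). EPHA7 averaged 17 ± 0.663 and 17.2 ± 1.09 CPM with overlapping libraries (adjusted p = 0.903), and EPHA3, EPHA5, EPHA6 and EPHA10 averaged 0.164 to 1.09 CPM. Summed EPHA levels were 365 to 377 CPM in PEG and HS against 299.5 to 309 CPM in E8 control, a sum that EPHA1 dominated.

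The EPHB receptors, which bind ephrin-B ligands, gave 1 rise and 2 falls among 5. EPHB3, known from the sorting of intestinal epithelial cells, rose from 3.34, 3.51 and 3.8 CPM in E8 control to 5.34, 4.92 and 4.61 CPM in PEG and HS, with no overlap. The change was 1.39-fold (log2FC 0.48, SE 0.11, adjusted p = 0.00626). EPHB6, whose kinase domain is inactive, fell to 21.9, 24.6 and 23.2 CPM from 27.5, 31.5 and 29.4 CPM, with a log2 fold change of -0.35 (SE 0.06, adjusted p = 0.000473). EPHB2 fell to a similar extent, with 25.5, 25.6 and 28.5 CPM against 31.6, 36 and 32 CPM and a log2 fold change of -0.32 (SE 0.06, adjusted p = 0.000928). EPHB4, the ephrin-B2 receptor known from veins, was the highest EPHB receptor per kb, at 31.7 CPM per kb in PEG and HS and 30.4 in E8 control. Its libraries gave 201, 210.1 and 201 CPM and 195, 196 and 196 CPM, which did not overlap, but the log2 fold change of 0.059 was not called (SE 0.028, adjusted p = 0.142). EPHB1 averaged 7.93 ± 0.147 and 8.42 ± 1.22 CPM (adjusted p = 0.541).

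The ephrin-A ligands moved in 1 direction, with 4 of 5 called lower (80%, beside 13.1% of all tested genes) and 0 called higher. Their summed level was 58.9 to 59.2 CPM in PEG and HS against 72.5 to 78.8 CPM in E8 control. EFNA5 (ENSG00000184349, chr5:107376894-107670937, minus strand), known from the mapping of retinal axons, gave 11.2, 11 and 11.4 CPM in PEG and HS against 20.6, 21 and 19.2 CPM in E8 control. The groups were well apart, and the 1.81-fold fall had a log2 fold change of -0.85, an SE of 0.061 and an adjusted p of 5.29e-08. EFNA1, the ligand of EPHA1 and EPHA2, fell 1.6-fold from 3.56, 3.94 and 3.99 CPM to 2.34, 1.88 and 2.93 CPM (log2FC -0.68, SE 0.16, adjusted p = 0.00482). So EFNA1 fell while both of these receptors rose.

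EFNA3 and EFNA2, also ligands of EPHA receptors, changed less. EFNA3 gave 17.6, 17.6 and 19 CPM against 20.1, 22.3 and 21 CPM (log2FC -0.22, SE 0.059, adjusted p = 0.0108). The call was lost without PEG and HS replicate 1 (adjusted p = 0.0516) and without control replicate 2 (adjusted p = 0.0502). EFNA3 shares 42.4% of its 31-base words with other transcripts, among them the readthrough EFNA4-EFNA3, and EFNA3, EFNA4 and this readthrough together averaged 33.9 ± 0.492 CPM in PEG and HS against 37.8 ± 1.4 CPM in E8 control. EFNA2 gave 11.4, 12.2 and 11.4 CPM against 13.2, 14.7 and 12.9 CPM, which do not overlap, with a log2 fold change of -0.22 (SE 0.07, adjusted p = 0.0324). This call was lost without PEG and HS replicate 1, without PEG and HS replicate 3, without control replicate 2 (adjusted p = 0.0916 to 0.144) and with DESeq2 (adjusted p = 0.0954). EFNA4, highest of the 5 per kb in both media, averaged 15.8 ± 1.1 and 16.8 ± 1.23 CPM with overlapping libraries (adjusted p = 0.438).

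Of the 3 ephrin-B ligands, 2 fell by similar amounts. EFNB1, which is X-linked and mutated in craniofrontonasal syndrome, gave 16, 17.7 and 17.6 CPM against 21.1, 21.6 and 20.2 CPM (log2FC -0.30, SE 0.059, adjusted p = 0.00163). EFNB3, known from midline guidance of corticospinal axons, gave 24.6, 26.3 and 24.5 CPM against 29.3, 31.7 and 29.1 CPM (log2FC -0.26, SE 0.052, adjusted p = 0.0017). EFNB2, the arterial ephrin that binds EPHB4, gave 39.8, 37.9 and 40.7 CPM against 36.3, 39.5 and 36.7 CPM, with overlap and no call (log2FC 0.075, adjusted p = 0.269).

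**Figure D2:**
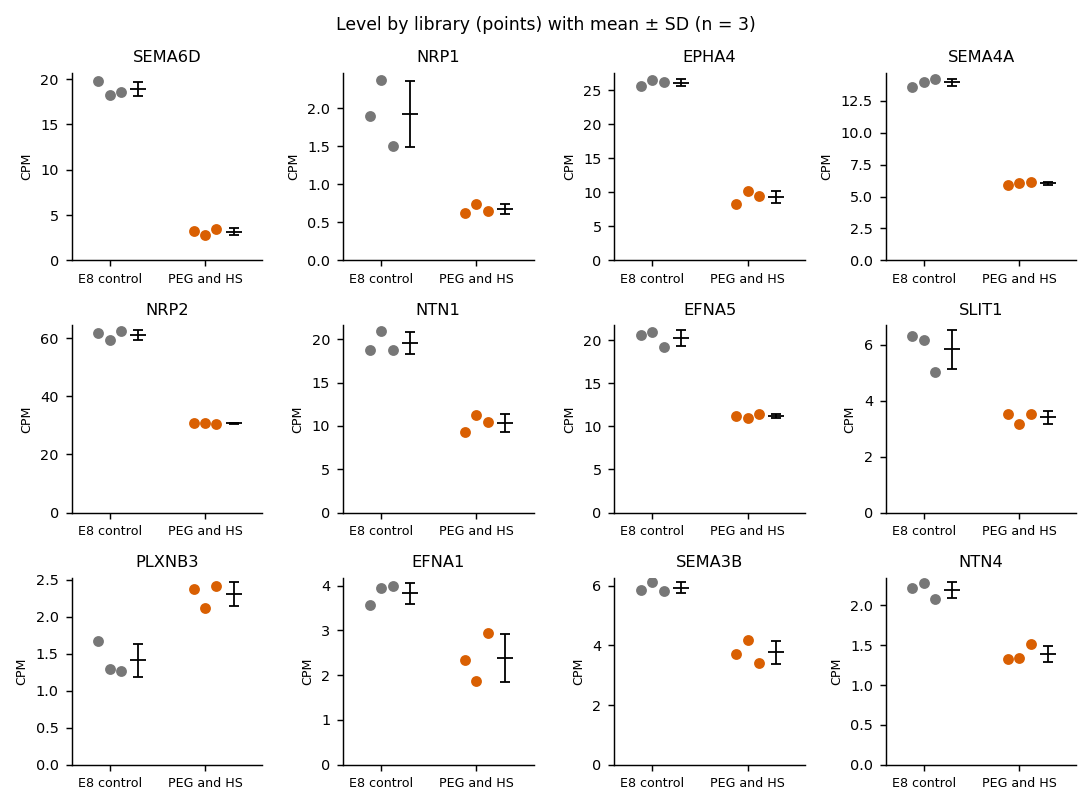
CPM in each library, with mean and SD over 3 libraries, of the 12 genes with the largest called log2 fold changes, in E8 control and in PEG and HS. No gene shows overlap between the media, and PLXNB3 is the only one of the 12 that is higher in PEG and HS.

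The largest change of all members was in a transmembrane semaphorin. SEMA6D (ENSG00000137872, chr15:47184101-47774228, plus strand), a ligand of plexin-A1 with a part in heart development, gave 3.2, 2.76 and 3.49 CPM in PEG and HS against 19.8, 18.3 and 18.6 CPM in E8 control. All control libraries were several times above all PEG and HS libraries. The fall was 5.95-fold (log2FC -2.57, SE 0.085, adjusted p = 7.9e-12). SEMA4A (ENSG00000196189, chr1:156147366-156177752, plus strand), known from T cell activation and the retina, fell 2.31-fold, from 13.6, 14 and 14.2 CPM to 5.93, 6.05 and 6.12 CPM (log2FC -1.21, SE 0.069, adjusted p = 4.09e-09). SEMA5B, a transmembrane semaphorin with thrombospondin repeats, fell 1.47-fold, with 28.5, 29.9 and 29.3 CPM against 44.7, 41.2 and 43.5 CPM (log2FC -0.56, SE 0.045, adjusted p = 2.12e-07). These 3 ligands had no overlap between media. Replicates of SEMA4A and SEMA5B were tight, while SEMA6D varied more for its level in PEG and HS, at 3.15 ± 0.366 CPM.

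SEMA6A, a class 6 ligand of plexin-A2 and plexin-A4, was the most counted of all 69 genes and rose. Its libraries gave 801, 823 and 799 CPM in PEG and HS against 672, 666 and 680.1 CPM in E8 control, a 1.2-fold change (log2FC 0.26, SE 0.024, adjusted p = 9.97e-07). It was also the highest gene per kb, at 74.1 CPM per kb in PEG and HS and 61.7 in E8 control. SEMA6B, another plexin-A4 ligand and second of its group per kb, fell to 81.3, 88.9 and 87.1 CPM from 104, 110.3 and 108 CPM (log2FC -0.32, SE 0.038, adjusted p = 1.13e-05). The class 6 semaphorins thus went both ways, with SEMA6A and SEMA6C higher and SEMA6B and SEMA6D lower. SEMA6C had a log2 fold change of 0.19 (SE 0.043, adjusted p = 0.0046).

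Of the other members of classes 4 to 7, SEMA7A, the lipid-anchored semaphorin that binds plexin-C1 and integrins, rose with a log2 fold change of 0.28 (SE 0.064, adjusted p = 0.00469), and SEMA4C, a ligand of plexin-B2, fell with one of -0.18 (SE 0.03, adjusted p = 0.000465). SEMA5A, the relative of SEMA5B that binds plexin-B3, gave 24.6, 25.2 and 24.1 CPM against 22.4, 21.5 and 22.3 CPM, without overlap (log2FC 0.16, SE 0.05, adjusted p = 0.0286). Its call was lost in the 4 fits without PEG and HS replicate 1 or 2 or control replicate 1 or 2 (adjusted p = 0.0555 to 0.103) and with DESeq2 (adjusted p = 0.0998). In all, 4 of the 13 rose and 5 fell, and their summed level was 1255 to 1295 CPM in PEG and HS against 1189.7 to 1198 CPM in E8 control.

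The 7 class 3 semaphorins, which are secreted, had 1 rise and 1 fall. SEMA3A, which makes growth cones collapse, rose to 48.6, 43.8 and 46.1 CPM from 41.6, 37.3 and 38.5 CPM (log2FC 0.24, SE 0.05, adjusted p = 0.00195). SEMA3B, a neuropilin ligand, fell 1.58-fold, with 3.71, 4.18 and 3.4 CPM in PEG and HS against 5.86, 6.13 and 5.82 CPM in E8 control (log2FC -0.66, SE 0.11, adjusted p = 0.000297). SEMA3F, the neuropilin-2 ligand and the highest class 3 gene per kb, averaged 49.5 ± 0.451 and 48.1 ± 2.52 CPM with overlapping libraries (log2FC 0.042, adjusted p = 0.521). The remaining 4 averaged 1.41 to 4.78 CPM and were not called.

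Both neuropilins fell, and their summed level was 31.2 to 31.5 CPM in PEG and HS against 61.7 to 63.9 CPM in E8 control. NRP2 (ENSG00000118257, chr2:205681990-205798133, plus strand), coreceptor of SEMA3F and of VEGF-C, gave 30.8, 30.8 and 30.6 CPM in PEG and HS against 61.8, 59.3 and 62.4 CPM in E8 control. The PEG and HS libraries lay within 1 CPM of each other and far below the controls, a 1.99-fold fall (log2FC -0.99, SE 0.039, adjusted p = 5.02e-11). NRP1 (ENSG00000099250, chr10:33177492-33336262, minus strand), coreceptor of SEMA3A and VEGF-A, was scarce, at 0.623, 0.743 and 0.65 CPM against 1.89, 2.37 and 1.5 CPM. Its 2.85-fold fall was also called, with a wider error (log2FC -1.51, SE 0.24, adjusted p = 0.000273). Per kb, NRP2 stood at 4.4 and NRP1 at 0.167 CPM per kb in E8 control.

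The plexins, the signalling receptors for semaphorins, mostly changed little. Of 9 plexins 3 rose and 1 fell, with log2 fold changes from -0.25 to 0.72. PLXNB1, the SEMA4D receptor and the highest plexin per kb, gave 271, 277 and 259 CPM against 251, 237 and 233 CPM (log2FC 0.16, SE 0.034, adjusted p = 0.00202), and PLXND1, the SEMA3E receptor of vessels, rose to a like extent (log2FC 0.17, SE 0.036, adjusted p = 0.00236). PLXNB3, a SEMA5A receptor, had the largest rise of the members at a low level, with 2.37, 2.12 and 2.42 CPM against 1.67, 1.29 and 1.27 CPM, a 1.65-fold change (log2FC 0.72, SE 0.18, adjusted p = 0.00906). It shares 19.2% of its 31-base words with other transcripts and overlaps SRPK3 on the same strand, which averaged 1.94 ± 0.318 CPM in PEG and HS against 1.39 ± 0.33 CPM in E8 control and was not called (adjusted p = 0.125).

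PLXNB2, the SEMA4C receptor, was called lower by a narrow margin. Its libraries gave 88.4, 94.6 and 90.4 CPM against 101, 96 and 96.3 CPM (log2FC -0.10, SE 0.035, adjusted p = 0.0453), and the call was lost in the 5 fits without PEG and HS replicate 1 or 3 or any 1 control (adjusted p = 0.051 to 0.183), with DESeq2 (adjusted p = 0.0606) and with library size alone (adjusted p = 0.0684). PLXNA3, which pairs with neuropilin-2 in SEMA3F signalling, was close to the threshold from the other side, with 36.9, 39.4 and 37.5 CPM against 44, 41.2 and 39.6 CPM (log2FC -0.13, SE 0.047, adjusted p = 0.0513), and it was called lower without PEG and HS replicate 2 (adjusted p = 0.0427) and without control replicate 3 (adjusted p = 0.0261). PLXNA1, the SEMA6D receptor, averaged 15.5 ± 0.295 CPM per kb in PEG and HS and 15.7 ± 0.528 in E8 control (adjusted p = 0.7).

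**Figure D3:**
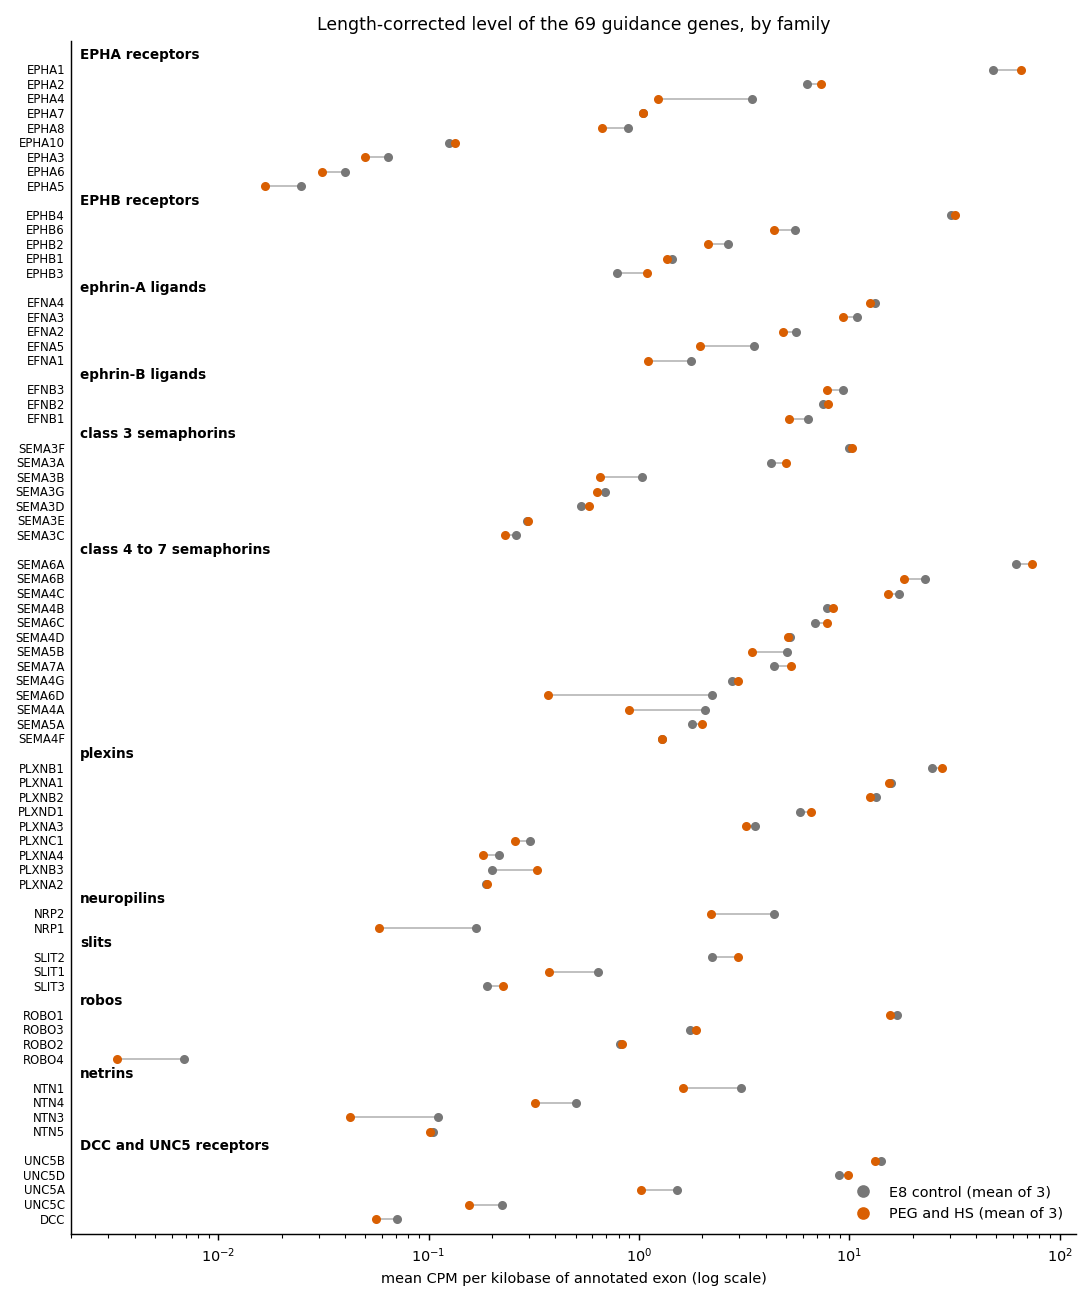
Mean CPM per kb of exon on a log axis for all 69 genes by family, with E8 control in grey and PEG and HS in orange. SEMA6A (61.7 and 74.1) and EPHA1 (48.2 and 65.6) are at the top in both media, and ROBO4 is at the bottom.

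The slits split by member. SLIT2 (ENSG00000145147, chr4:20251905-20620561, plus strand), the ligand of ROBO1 in commissural guidance, rose from 25, 24.3 and 24.6 CPM in E8 control to 33.5, 31.5 and 32.9 CPM in PEG and HS. The groups did not overlap, and the rise was 1.33-fold (log2FC 0.41, SE 0.046, adjusted p = 9.51e-06). SLIT1, the slit most restricted to the nervous system, fell 1.7-fold, with 3.53, 3.15 and 3.52 CPM against 6.3, 6.16 and 5.04 CPM (log2FC -0.77, SE 0.12, adjusted p = 0.000192). The readthrough ARHGAP19-SLIT1 on the same strand averaged 0.211 ± 0.191 and 0.173 ± 0.172 CPM. SLIT3 averaged 3.22 ± 0.0895 and 2.72 ± 0.0516 CPM without overlap and was not called (log2FC 0.25, adjusted p = 0.19).

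Of the robos, ROBO1, the main slit receptor by level here, gave 169, 173 and 175 CPM in PEG and HS against 179, 184 and 194 CPM in E8 control. The groups did not overlap and were close (log2FC -0.11, SE 0.032, adjusted p = 0.0249), and the call was lost without PEG and HS replicate 1, without PEG and HS replicate 2 and without control replicate 3 (adjusted p = 0.05 to 0.118). ROBO2 and ROBO3, the latter known from the crossing of commissural axons, averaged 12.1 to 13.9 CPM and were not called (adjusted p = 0.74 and 0.302).

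Among the 4 netrins 2 fell and 0 rose. NTN1 (ENSG00000065320, chr17:9021510-9244000, plus strand), the netrin of the floor plate, gave 9.25, 11.3 and 10.4 CPM in PEG and HS against 18.8, 21 and 18.8 CPM in E8 control. The highest PEG and HS library stayed well under the lowest control, and the fall was 1.9-fold (log2FC -0.93, SE 0.076, adjusted p = 2.73e-07). NTN4, a netrin of basement membranes that binds laminin, fell 1.57-fold at a low level, with 1.33, 1.34 and 1.51 CPM against 2.22, 2.28 and 2.08 CPM (log2FC -0.65, SE 0.18, adjusted p = 0.0131). NTN3 and NTN5 stayed under 1 CPM (adjusted p = 0.103 and 0.95).

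The netrin receptors were changed in 2 of 5 cases, 1 each way. UNC5A, which mediates repulsion from netrin-1, fell 1.49-fold, with 4.24, 4.46 and 4.52 CPM against 6.19, 6.65 and 6.76 CPM (log2FC -0.57, SE 0.094, adjusted p = 0.000335). UNC5D, a receptor that also binds FLRT proteins, rose slightly, with 107, 103 and 108 CPM against 101, 91.5 and 95.9 CPM (log2FC 0.14, SE 0.037, adjusted p = 0.00996), and lost its call without control replicate 2 (adjusted p = 0.0567). UNC5B, a netrin receptor also of vessels and the highest of the 5 per kb, gave 83.7, 99.2 and 88.5 CPM against 98.3, 98.4 and 95 CPM, where the second PEG and HS library lay above all controls. Its log2 fold change of -0.11 was not called (adjusted p = 0.126), and without that library it was -0.17 with an adjusted p of 0.00402. UNC5C averaged 1.66 ± 0.443 and 2.38 ± 0.433 CPM (adjusted p = 0.0894). DCC, the attractive netrin receptor, was below 1 CPM on average in both media, with 0.89, 0.425 and 0.886 CPM against 1.11, 1.14 and 0.527 CPM, and the groups overlapped (adjusted p = 0.594).

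Levels per kb differed among members far more than between media. In E8 control SEMA6A (61.7 ± 0.645 CPM per kb), EPHA1 (48.2 ± 1.28), EPHB4 (30.4 ± 0.118), PLXNB1 (24.6 ± 0.951) and SEMA6B (22.8 ± 0.69) stood highest, in that order, and the first 3 were separated by far more than their SDs. SEMA4C (17.2 ± 0.34) and ROBO1 (16.8 ± 0.681), next in the order, differed by less than the larger SD. In PEG and HS EPHB4 (31.7 ± 0.797) and PLXNB1 (27.5 ± 0.952) kept their places behind SEMA6A and EPHA1. In the netrin and slit systems the highest receptors, ROBO1 and UNC5B (14.2 ± 0.286 CPM per kb in E8 control), stood above the highest ligands, NTN1 (3.05 ± 0.197) and SLIT2 (2.23 ± 0.032). UNC5D (8.91 ± 0.451) also did. The receptors ROBO2, ROBO3, ROBO4, UNC5A, UNC5C and DCC lay below both ligands, at 0.00683 to 1.74 CPM per kb in E8 control.

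Other genes of the pathway were read from lists of general knowledge. Of 39 coreceptors, adhesion molecules and further cues, 3 rose (7.69%, beside 12.2% of all tested genes) and 14 fell (35.9%, beside 13.1%), with a median log2 fold change of -0.13. FLRT3, which binds UNC5 and robo receptors, averaged 2.24 ± 0.39 CPM in PEG and HS against 6.1 ± 0.306 CPM in E8 control (log2FC -1.44, adjusted p = 1.06e-06). RGMA, a ligand of neogenin, fell from 76 ± 2.37 to 44.5 ± 2.41 CPM (log2FC -0.77, adjusted p = 2.49e-09), and its receptor NEO1, a relative of DCC, fell less, from 126 ± 3.09 to 115 ± 1.67 CPM (log2FC -0.13, adjusted p = 0.00501). NRCAM, an adhesion molecule that partners neuropilin-2, fell from 13.4 ± 0.961 to 7.41 ± 0.253 CPM, and L1CAM, the related partner of neuropilin-1, rose from 44.6 ± 1.15 to 66.7 ± 0.812 CPM (log2FC -0.86 and 0.58, adjusted p = 5.85e-07 and 9.08e-09).

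The 54 intracellular effectors were split, with 13 higher (24.1%, beside 12.2% of all tested genes) and 12 lower (22.2%, beside 13.1%) and a median log2 fold change of -0.013. The Rnd GTPases, which bind plexins, went different ways. RND3 rose from 34.9 ± 1.99 to 60.7 ± 1.14 CPM (log2FC 0.80, adjusted p = 2.29e-09), while RND2 fell from 164 ± 4.58 to 103 ± 2.93 CPM (log2FC -0.68, adjusted p = 5.21e-10) and RND1 from 13 ± 0.543 to 7.39 ± 0.282 CPM (log2FC -0.82, adjusted p = 5.09e-07). PAK1, a kinase downstream of RAC1 and CDC42, rose from 174 ± 1.8 to 229 ± 0.839 CPM, and DPYSL3, of the collapsin response mediator family, fell from 1148 ± 22.6 to 857 ± 16 CPM (log2FC 0.40 and -0.42).

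**Figure D4:**
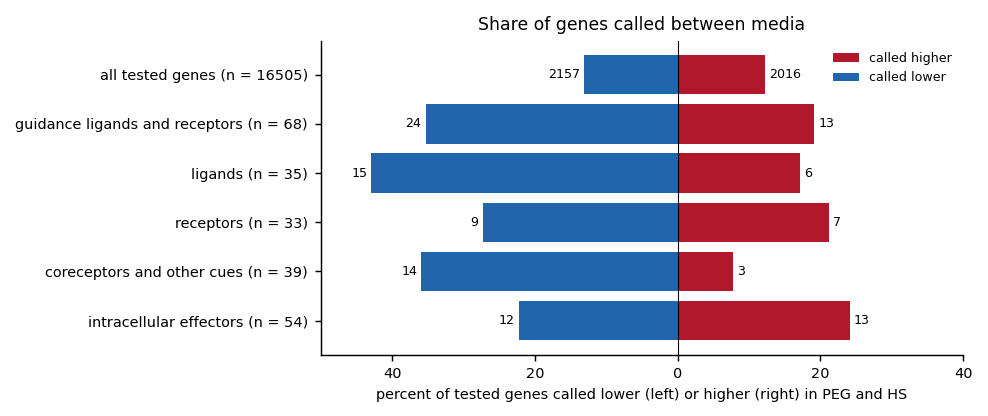
Percent of tested genes called lower (to the left) and higher (to the right) in PEG and HS, for all tested genes, all members, ligands, receptors and the 2 lists of other pathway genes. The members have 24 lower and 13 higher of 68, against 2157 and 2016 of 16505 tested genes.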

How the data were processed

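Polyadenylated RNA of 6 NCRM-1 samples, 3 in each medium, was sequenced from stranded libraries. The authors deposited raw counts per Ensembl gene, 1 file per library. They trimmed reads with Trim Galore 0.6.7 and mapped them to GRCh38 with STAR 2.6.1, per the labels, filtered low counts and tested with DESeq2. The counting tool, its strand setting, its handling of multi-mapped reads and its annotation release are not given in the sources used here. Of 19977 identifiers, 19916 matched GENCODE 44, and no line lacked a gene.

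The test was edgeR 4.0.16 in R 4.3.3 with TMM factors, glmQLFit and glmQLFTest and no covariates, for the 16505 genes whose counts reached 10 in total, and p-values were adjusted over these by Benjamini-Hochberg. An SE was obtained by dividing the size of the log2 fold change by the root of its F statistic. CPM and CPM per kb of GENCODE exon were computed from the deposited counts. Shared sequence is the share of 31-base words that occur in other genes' transcripts. Depth was 26991279 to 36185138 counts per library and the common biological coefficient of variation 3.12%, which resolves small changes except in genes with few counts. Replicates differed by more than counting noise, with a chi-square of 2.58 to 3.52 per degree of freedom. The scripts were tested on simulated data.

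The members and lists were chosen with earlier results of these data known. Named are the highest member of each family by mean CPM, the 20 members with the largest change among called members without overlap and at 1 CPM or more in every library of the medium with more, and members whose call changed when 1 library was left out. Other members and other genes were named after their values were seen. Alternatives were DESeq2 1.42.0, limma-voom (limma 3.58.1), other normalizations and filters, a replicate block, leaving out each library, and other thresholds.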

Additional observations from a re-analysis of the deposited data

How the results depend on the processing

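Of the 37 called members, 30 kept the call in all 14 alternative fits that tested them, and no member's log2 fold change with a call changed sign. Members called higher numbered 13 and called lower 24. These were 12 and 21 with DESeq2, 13 and 24 with limma-voom, 13 and 23 with library size alone, and 11 to 13 and 19 to 24 with 1 library left out. DESeq2 lost 4 calls (EPHA8, SEMA5A, EFNA2 and PLXNB2) and gave no adjusted p for 4 uncalled members. With an absolute log2 fold change over 0.5 required, 1 member was called higher and 13 lower. Among coreceptors and cues 2 were higher and 5 lower, and among effectors 1 was higher and 3 lower. Of all tested genes 903 remained (1.28% higher and 4.19% lower), fewer by construction. At an adjusted p under 0.01, 2601 genes and 12 higher and 18 lower members remained past the threshold. The median log2 fold change of members was -0.087 to -0.14 with 1 library left out. No clear pairing by replicate number was seen. Same-number correlations of deviations were 0.0305 to 0.0434, the others -0.0944 to 0.0537, and 1 of 3 PEG and HS libraries correlated best with its own number. Whether libraries of the same number shared a batch cannot be told from 3 libraries per medium. With the replicate block, 14 members were higher and 26 lower (4444 genes called in all), with UNC5C, SEMA4B and PLXNA3 added. PLXNA3 was called lower in 7 of the 14. The causes were not tested.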
